A study of Homo sapiens with 10 samples.

Results

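DNA replication and G1/S genes are the genes that mark, open and copy the chromosomes and the regulators that start S phase. Their RNA was measured in SH-SY5Y, a human line grown from neuroblastoma, a tumour of the sympathetic nervous system, stably transfected with SOD1(G93A) or with wild-type SOD1. SOD1 encodes copper-zinc superoxide dismutase, and G93A is a form found in familial amyotrophic lateral sclerosis. The members were a list of 51 genes, and 46 of them had a probe set annotated with exactly 1 gene symbol, of 14232 such named genes and 22011 probe sets in all. PCNA, MCM7, FEN1, POLA1 and RPA3 share their probe sets with another annotated gene, so no value is given for them.

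The SOD1(G93A) cells gave 5 arrays (samples 3, 9, 12, 15 and 18) and the wild-type SOD1 cells gave 5 (samples 2, 8, 11, 14 and 17). Every line was a stable transfectant kept under Geneticin (G418) in serum-containing medium, so both groups carry an added SOD1 construct, and no untransfected cells are analysed here. The sources used here do not give the promoter of the construct, how many clones made up a line, or whether the 5 samples of a group grew as separate cultures. A p-value therefore covers the spread among these samples alone, and that spread may be technical. The SOD1 form and whatever else differs between the lines cannot be told apart. Levels are gene-level log2 intensities, and a fold change is the SOD1(G93A) mean minus the wild-type mean on that scale. The threshold for a call was an adjusted p of 0.05 by limma, with all 22011 probe sets in the fit. The 5 arrays per group limit the precision.

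Array medians lay between 6.26 and 6.34, and every measured member was brighter than that, with mean levels of 6.61 to 11.09. The noradrenergic markers PHOX2A, ISL1 and GATA3 had mean levels of 9.34, 9.70 and 9.94 in SOD1(G93A) arrays and of 9.17, 9.47 and 10.32 in wild-type arrays, while TH, the first enzyme of catecholamine synthesis, was dim (5.67 and 5.59). Of the 6 noradrenergic markers measured 1 was called higher by limma, CHGA (log2 fold change 1.06), and 1 lower, GATA3 (-0.38). The 7 measured immune and endothelial markers had mean levels of 2.16 to 4.64, and 0 passed in limma or in the unmoderated test, or had an unadjusted p under 0.05. Of 8 mesenchymal markers 4 were called higher (YAP1, CD44, FN1 and VIM) and 1 lower (SNAI2) in SOD1(G93A) arrays. The part of either marker list in the results below was not tested.

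Replication starts from origins that the origin recognition complex (ORC) marks. CDC6 and CDT1 load the MCM2-7 helicase there in G1, a step called licensing, and CDC45 and the GINS complex join it to make the active helicase at the start of S phase. Much of this set is under the E2F transcription factors, which are freed when cyclin-dependent kinases phosphorylate the retinoblastoma protein, and cyclin E with CDK2 helps drive that step. In proliferating tumour lines such as neuroblastoma cells the set is normally well expressed.

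The promoters of the members were searched for short E2F words and for an element of G2 and M promoters. Much of this set is under E2F factors, so finding E2F words in it is no independent result. The promoters came from RefSeq on GRCh38.p14 and were matched by symbol for 42 of the 51 genes, with the first listed start used. MCM4, MCM5, GINS4, POLD3, RPA2, CDK2, CCNE2, E2F8 and RPA3 were not matched. The E2F words searched were TTTGGCGC, TTTCGCGC, TTTCCCGC and TTTGCCGC on both strands, in the 250 bases before and the 50 bases after the start. They were found in 20 of 42 member promoters (47.6%), against 3.33% of all 27305 promoters and 4.49% of those of the named genes on the array. The cell cycle homology region (CHR), an element of promoters active in G2 and M, was searched as TTTGAA and TTCGAA. It was found in 2 of the 42 (4.76%), those of MCM6 and RRM1. The shares were 16.6% of all promoters and 13.1% of those of the named genes on the array. The E2F and CHR words do not overlap each other, while E2F words on opposite strands can overlap, as in MCM6 and MCM2 below. The promoters printed are those of 2 members with an E2F word and of 2 called members without one, as the 250 bases before the start, 5′ to 3′ on the gene's strand, with E2F words in capitals. They are E2F2 (chr1:23531234-23531483, minus strand), MCM6 (chr2:135876444-135876693, minus strand), TK1 (chr17:78187205-78187454, minus strand) and CCNE1 (chr19:29811741-29811990, plus strand). For MCM2 (chr3:127598404-127598433, plus strand) a site of 30 bases across the start is shown, because its word lies just after the start.
E2F2: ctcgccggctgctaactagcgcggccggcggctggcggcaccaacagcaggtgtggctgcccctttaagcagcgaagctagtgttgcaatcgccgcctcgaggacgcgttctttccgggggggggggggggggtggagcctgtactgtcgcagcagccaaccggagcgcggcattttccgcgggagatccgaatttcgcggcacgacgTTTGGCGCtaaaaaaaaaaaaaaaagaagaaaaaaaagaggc
MCM6: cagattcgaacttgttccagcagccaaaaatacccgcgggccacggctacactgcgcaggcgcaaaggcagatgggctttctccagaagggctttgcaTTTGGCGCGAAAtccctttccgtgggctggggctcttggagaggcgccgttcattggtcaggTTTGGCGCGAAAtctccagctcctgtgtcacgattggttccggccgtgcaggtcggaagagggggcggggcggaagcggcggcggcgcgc
TK1: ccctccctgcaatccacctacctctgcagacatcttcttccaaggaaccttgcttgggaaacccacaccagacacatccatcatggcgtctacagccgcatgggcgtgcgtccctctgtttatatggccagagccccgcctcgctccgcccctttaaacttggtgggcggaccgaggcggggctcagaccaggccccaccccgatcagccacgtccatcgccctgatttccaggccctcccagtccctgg
CCNE1: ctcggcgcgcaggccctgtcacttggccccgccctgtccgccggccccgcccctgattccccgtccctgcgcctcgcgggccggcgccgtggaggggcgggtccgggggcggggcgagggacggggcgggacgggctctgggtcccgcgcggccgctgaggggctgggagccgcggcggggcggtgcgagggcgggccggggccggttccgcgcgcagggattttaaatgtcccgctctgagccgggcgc
MCM2 site: tgaaccactTTTCGCGCGAAAcctggttgt
The E2F2 word begins 42 bases before the start. MCM6 holds the same 12-letter stretch at 152 and at 90 bases before its start, in which a word on each strand overlaps. No word was found in the TK1 and CCNE1 windows, which says only that these letters are not there, and a match is a description, not a binding site. Among the 38 measured members with a promoter entry, the 17 with an E2F word had a median log2 fold change of -0.07 (range -0.37 to 0.20, 2 called) and the 21 without one had -0.05 (range -0.27 to 0.27, 2 called).

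In the SOD1(G93A) cells 3 of the 46 measured members fell and 1 rose. The transcription factor gene E2F2, the helicase subunit gene MCM2 and the thymidine kinase gene TK1 were lower, at 77.3%, 83.6% and 83.1% of the wild-type level, and the cyclin gene CCNE1 was higher, at 121%. The 4 called members are 8.70% of those measured, against 9.60% of all named genes (5.57% lower and 4.03% higher), so the share called was near the background. The count past an unadjusted p of 0.05 was 14 of 46 (30.4%), 12 lower and 2 higher, against 21.7% of named genes (11.6% lower and 10.1% higher). The groups did not overlap in 7 members (15.2%), 6 lower and 1 higher, against 11.4% of named genes (6.49% lower and 4.95% higher). The median log2 fold change of the members was -0.06, against -0.00 over all named genes, and 33 of 46 were below 0 (71.7%, against 51.3%). That median was -0.03 without SOD1(G93A) sample 9, -0.10 without SOD1(G93A) sample 18 and -0.10 without samples 17 and 18 together. No member differed by the 2-fold step that the labels also ask for.

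**Figure D1:**
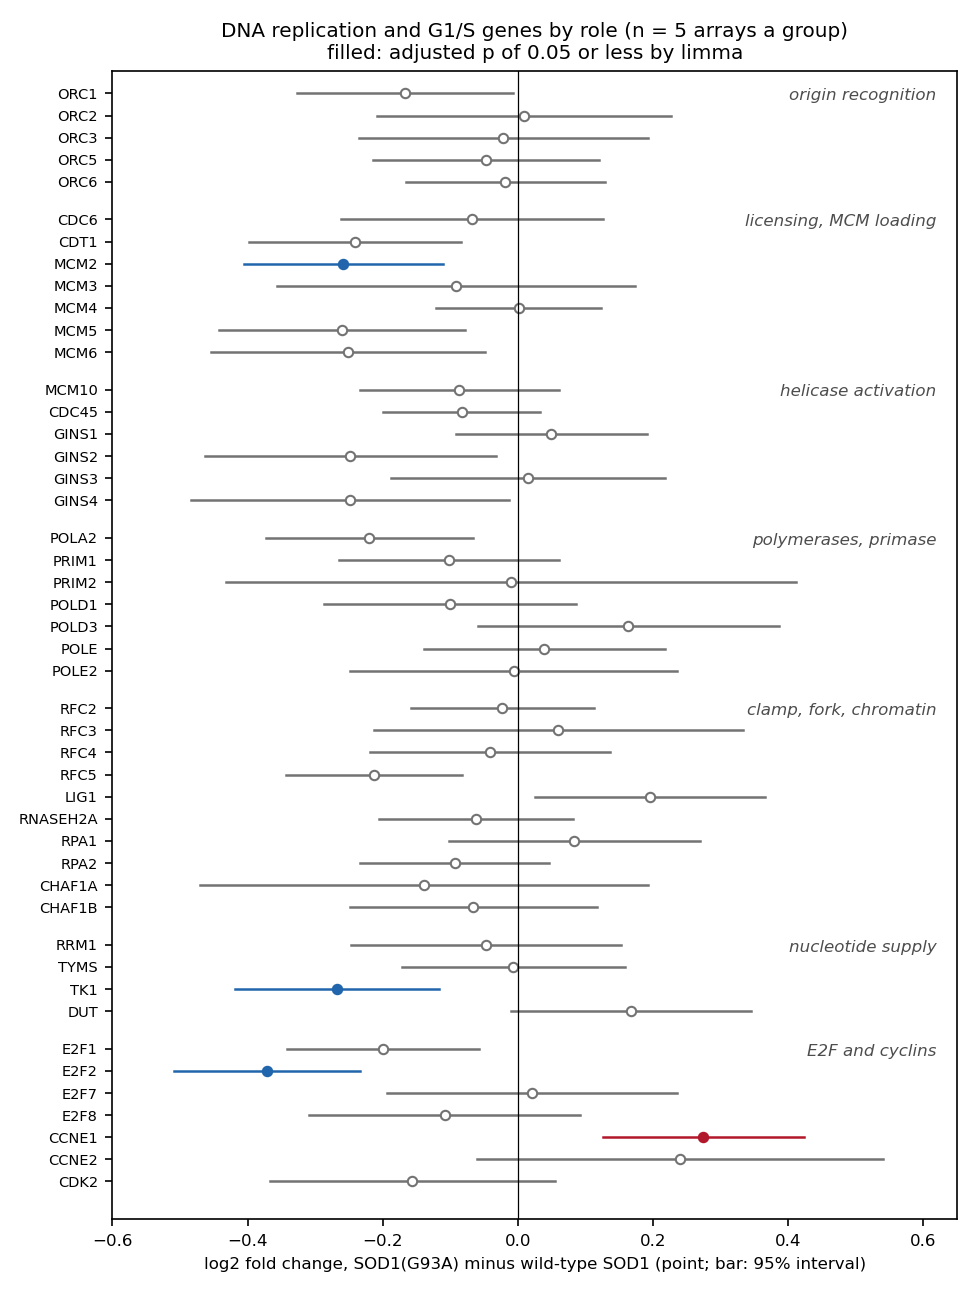
Log2 fold change (x axis, SOD1(G93A) minus wild-type SOD1, n = 5 arrays each) of the 46 measured members, listed on the y axis by role, with 95% intervals as bars. Filled points passed an adjusted p of 0.05 by limma: E2F2, MCM2 and TK1 lie left of 0 and CCNE1 right of it, and all 46 lie between -0.37 and 0.27.

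The origin recognition genes gave no call. Of 5 measured, 0 were called by limma or the unmoderated test and 1 had an unadjusted p under 0.05. ORC1, the largest ORC subunit and the member of the complex that varies through the cell cycle, had levels of 7.49, 7.20, 7.45, 7.42 and 7.55 in SOD1(G93A) arrays, against 7.55, 7.51, 7.57, 7.61 and 7.70 in wild-type arrays. The groups overlapped, through SOD1(G93A) sample 18 (log2 fold change -0.17, SE 0.07, adjusted p = 0.241 by limma). ORC2 had the highest fold change of the complex (0.01, 95% interval -0.21 to 0.23), and ORC3, ORC5 and ORC6 lay between -0.05 and -0.02.

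The licensing genes held the lowest median of the roles, -0.24 over 7 measured genes. By limma 1 fell, MCM2, and 4 had an unadjusted p under 0.05, all lower. MCM2, a subunit of the helicase ring that also binds histones, had levels of 9.53, 9.25, 9.50, 9.40 and 9.32 in SOD1(G93A) arrays, against 9.65, 9.61, 9.77, 9.66 and 9.60 in wild-type arrays. Every SOD1(G93A) array lay below every wild-type array, with sample 9 the lowest, and the level was 83.6% of wild type (log2 fold change -0.26, SE 0.07, adjusted p = 0.0404 by limma). With 1 array omitted the log2 fold change stayed between -0.29 and -0.22. The call held with SOD1(G93A) sample 3 or 12 omitted (adjusted p up to 0.0394) and was lost without any of the other 8 arrays (adjusted p 0.0602 to 0.0967).

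Of the other measured subunits of the MCM2-7 ring, none passed the limma threshold, and their fold changes ran from -0.26 to 0.00. MCM5 had levels of 9.25, 9.07, 9.41, 9.39 and 9.29 in SOD1(G93A) arrays, against 9.61, 9.42, 9.71, 9.52 and 9.44 in wild-type arrays, also without overlap, although SOD1(G93A) sample 12 and wild-type sample 8 nearly met (log2 fold change -0.26, SE 0.08, adjusted p = 0.0957 by limma). MCM6 had levels of 9.15, 8.98, 9.23, 9.30 and 9.46 in SOD1(G93A) arrays, against 9.48, 9.28, 9.57, 9.55 and 9.49 in wild-type arrays. These overlapped, since SOD1(G93A) samples 15 and 18 lay above wild-type sample 8 (log2 fold change -0.25, adjusted p = 0.155). MCM4 had levels of 9.96, 10.00, 9.99, 10.00 and 10.11 in SOD1(G93A) arrays, against 9.92, 10.06, 10.11, 9.99 and 9.97 in wild-type arrays, with overlap throughout (log2 fold change 0.00, 95% interval -0.12 to 0.12). MCM3 lay between them at -0.09, with the widest interval of the ring (-0.36 to 0.17). The differences between subunits were not tested.

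Of the loaders, CDT1, which brings the MCM ring to the origin, had levels of 8.35, 8.01, 8.20, 8.31 and 8.16 in SOD1(G93A) arrays, against 8.48, 8.32, 8.46, 8.46 and 8.50 in wild-type arrays. The groups overlapped only in SOD1(G93A) sample 3 and wild-type sample 8, and CDT1 missed the threshold (log2 fold change -0.24, SE 0.07, adjusted p = 0.0735 by limma). It passed with cyclic loess normalization (adjusted p = 0.0446) and when dim features were left out, those below the median brightness. CDC6, the ATPase that works with CDT1, had a log2 fold change of -0.07 (95% interval -0.26 to 0.13).

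**Figure D2:**
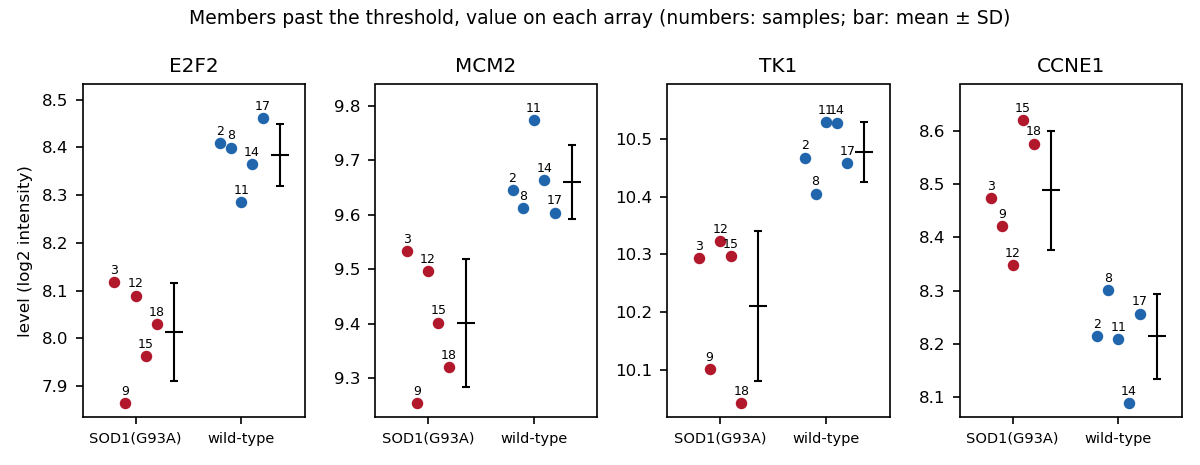
Level (y axis, log2 intensity) of the 4 called members on each array, SOD1(G93A) left and wild-type SOD1 right, with sample numbers at the points and mean ± SD as bars (n = 5 each). E2F2, MCM2 and TK1 lie lower and CCNE1 higher in all 5 SOD1(G93A) arrays than in any wild-type array. The y axes differ between panels and do not start at 0.

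Genes of helicase activation gave no call by limma or the unmoderated test over 6 measured. Of them 2 had an unadjusted p under 0.05, both lower (33.3%, against 21.7% of named genes, of which 11.6% lower). GINS2 and GINS4, subunits of the same complex, had log2 fold changes of -0.25 and -0.25, with adjusted p = 0.190 and 0.238 by limma. GINS4 had levels of 7.75, 7.58, 7.65, 7.76 and 7.80 in SOD1(G93A) arrays, against 7.81, 7.68, 7.90, 8.20 and 8.21 in wild-type arrays, where samples 14 and 17 were high and sample 8 alone lay within the SOD1(G93A) range. The partners GINS1 and GINS3 had fold changes of 0.05 and 0.02. CDC45 and MCM10, which act when the helicase is switched on, lay at -0.08 (95% interval -0.20 to 0.03) and -0.09 (95% interval -0.23 to 0.06).

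Of 7 measured polymerase and primase genes 0 passed in limma or in the unmoderated test, and the count at an unadjusted p under 0.05 was 1. That was POLA2, the accessory subunit of the priming polymerase alpha, with levels of 8.86, 8.88, 8.74, 9.00 and 8.96 in SOD1(G93A) arrays, against 9.10, 9.06, 9.28, 9.09 and 9.01 in wild-type arrays. The groups did not overlap, but their nearest arrays, samples 15 and 17, were close (log2 fold change -0.22, SE 0.07, adjusted p = 0.0936 by limma). POLD3, a subunit of the lagging-strand polymerase delta, had the highest fold change (0.16, adjusted p = 0.451), and its samples 15 and 18 stood above the other SOD1(G93A) arrays. The catalytic subunit genes POLD1 and POLE had -0.10 and 0.04, and both primase genes, PRIM1 and PRIM2, had -0.10 and -0.01. PRIM2 had the widest 95% interval of the polymerase and primase genes (-0.43 to 0.41).

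Of 10 measured fork and chromatin assembly genes 0 passed in limma, and the unmoderated test called 1, RFC5. At an unadjusted p under 0.05 there were 1 lower and 1 higher. RFC5, a subunit of the clamp loader that places PCNA on DNA, had levels of 8.28, 8.11, 8.16, 8.32 and 8.30 in SOD1(G93A) arrays, against 8.48, 8.44, 8.36, 8.43 and 8.51 in wild-type arrays. The groups did not overlap and the adjusted p by limma was 0.0568 (log2 fold change -0.21, SE 0.06). The other clamp loader subunits measured, RFC2, RFC3 and RFC4, had -0.02, 0.06 and -0.04. RFC5 passed the threshold in 6 of 9 other settings (adjusted p 0.0277 to 0.131) and in 0 of the 10 that left out 1 array (adjusted p 0.0629 to 0.124). Among the settings it passed in, the filters on dim probe sets left the RFC5 values themselves unchanged.

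LIG1, the ligase that joins Okazaki fragments, ran the other way, with levels of 8.36, 8.13, 8.44, 8.51 and 8.41 in SOD1(G93A) arrays, against 8.20, 8.08, 8.13, 8.15 and 8.31 in wild-type arrays. SOD1(G93A) sample 9 was the low one and overlapped the wild-type values (log2 fold change 0.20, SE 0.08, adjusted p = 0.190 by limma), and without it LIG1 was called (0.26, adjusted p = 0.0446). The single-strand binding protein genes RPA1 and RPA2 had 0.08 and -0.09, the RNase H2 subunit gene RNASEH2A had -0.06, and the histone chaperone genes CHAF1A and CHAF1B had -0.14 and -0.07.

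In nucleotide supply 1 of 4 measured members fell. TK1, the cytosolic thymidine kinase of S phase, had levels of 10.29, 10.10, 10.32, 10.30 and 10.04 in SOD1(G93A) arrays, against 10.47, 10.41, 10.53, 10.53 and 10.46 in wild-type arrays. All SOD1(G93A) arrays were lower, samples 9 and 18 the most, and the level was 83.1% of wild type (log2 fold change -0.27, SE 0.07, adjusted p = 0.0384 by limma). The call held without SOD1(G93A) sample 12 (adjusted p = 0.0332) and was lost without any of the other 9 arrays (adjusted p 0.0502 to 0.0936), with log2 fold changes of -0.30 to -0.23 over these fits. With cyclic loess normalization it was also lost (adjusted p = 0.0662), as was that of MCM2 (adjusted p = 0.0529). TYMS, thymidylate synthase and the brightest member, had a log2 fold change of -0.01 (95% interval -0.17 to 0.16), and RRM1, the large subunit of ribonucleotide reductase, had -0.05 (95% interval -0.25 to 0.15). DUT, which removes dUTP, had the highest value of the group (0.17, adjusted p = 0.301).

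The E2F and cyclin genes split. E2F2, an activating E2F, had levels of 8.12, 7.86, 8.09, 7.96 and 8.03 in SOD1(G93A) arrays, against 8.41, 8.40, 8.28, 8.36 and 8.46 in wild-type arrays. The highest SOD1(G93A) array, sample 3, lay below the lowest wild-type array, sample 11, and the level was 77.3% of wild type (log2 fold change -0.37, SE 0.06, 95% interval -0.51 to -0.23, adjusted p = 0.00356 by limma). E2F2 was the member called in each of the 10 fits without 1 array (adjusted p 0.00517 to 0.0126) and in all 9 other settings without a fold threshold (up to 0.0237). Filtering dim probe sets or averaging probe sets left the E2F2 values themselves unchanged, so these settings altered only the limma fit and the adjustment.

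E2F1, another activating E2F, had levels of 8.39, 8.27, 8.32, 8.44 and 8.33 in SOD1(G93A) arrays, against 8.42, 8.61, 8.67, 8.45 and 8.61 in wild-type arrays. The groups overlapped through SOD1(G93A) sample 15 and wild-type sample 2, and its adjusted p by limma was 0.103 (log2 fold change -0.20, SE 0.06). E2F3, a further activating E2F and no member of the list, had mean levels of 8.35 in SOD1(G93A) and 8.44 in wild-type arrays (log2 fold change -0.08, adjusted p = 0.687 by limma). The repressing family members E2F7 and E2F8 had 0.02 (95% interval -0.19 to 0.23) and -0.11 (95% interval -0.31 to 0.09). Also outside the list, E2F4, E2F5 and E2F6 had 0.16, 0.24 and -0.59. None of these was called (adjusted p = 0.364, 0.225 and 0.0832 by limma).

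CCNE1, cyclin E1, was the member that rose, with levels of 8.47, 8.42, 8.35, 8.62 and 8.58 in SOD1(G93A) arrays, against 8.21, 8.30, 8.21, 8.09 and 8.26 in wild-type arrays. The lowest SOD1(G93A) array, sample 12, lay just above the highest wild-type array, sample 8, and the level was 121% of wild type (log2 fold change 0.27, SE 0.07, adjusted p = 0.0311 by limma). The call held with wild-type sample 8, or sample 9 or 12 of the SOD1(G93A) group, omitted (adjusted p up to 0.0475) and was lost without any of the other 7 arrays (adjusted p 0.0529 to 0.0765), with log2 fold changes of 0.24 to 0.31 over these fits. CCNE2, cyclin E2, had levels of 6.61, 6.54, 6.47, 6.90 and 7.12 in SOD1(G93A) arrays, against 6.79, 6.43, 6.52, 6.26 and 6.44 in wild-type arrays. Samples 15 and 18 were above all wild-type arrays and the other 3 were not (log2 fold change 0.24, SE 0.14, adjusted p = 0.399). Their kinase partner CDK2 had -0.16 (95% interval -0.37 to 0.06). Without samples 17 and 18 together, MCM2, TK1 and CCNE1 all lost their calls (adjusted p = 0.117, 0.113 and 0.106), and E2F2 kept its own (adjusted p = 0.0237).

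For most members the spread was wider among SOD1(G93A) arrays. The SD was larger in the SOD1(G93A) group for 35 of 46 members (76.1%, against 54.6% of named genes), with median SDs of 0.14 in SOD1(G93A) and 0.09 in wild-type arrays. The mean over the 46 members was 8.62, 8.51, 8.58, 8.70 and 8.76 in SOD1(G93A) samples 3, 9, 12, 15 and 18, against 8.72, 8.63, 8.74, 8.69 and 8.73 in wild-type samples 2, 8, 11, 14 and 17. These means overlapped. SOD1(G93A) sample 9 had the lowest value of its group in 22 of 46 members (47.8%, against 29.8% of named genes), and sample 18 the highest in 19 (41.3%, against 29.1%). Wild-type sample 8 was the lowest of its group in 24 members (52.2%, against 23.9%). The role with the largest difference in these means was licensing, with 9.19, 9.02, 9.25, 9.23 and 9.31 in SOD1(G93A) arrays, against 9.41, 9.27, 9.45, 9.37 and 9.34 in wild-type arrays, where sample 18 overlapped sample 8. In RNA from whole cultures, fewer cells in S phase and less RNA per cell cannot be told apart in these values.

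**Figure D3:**
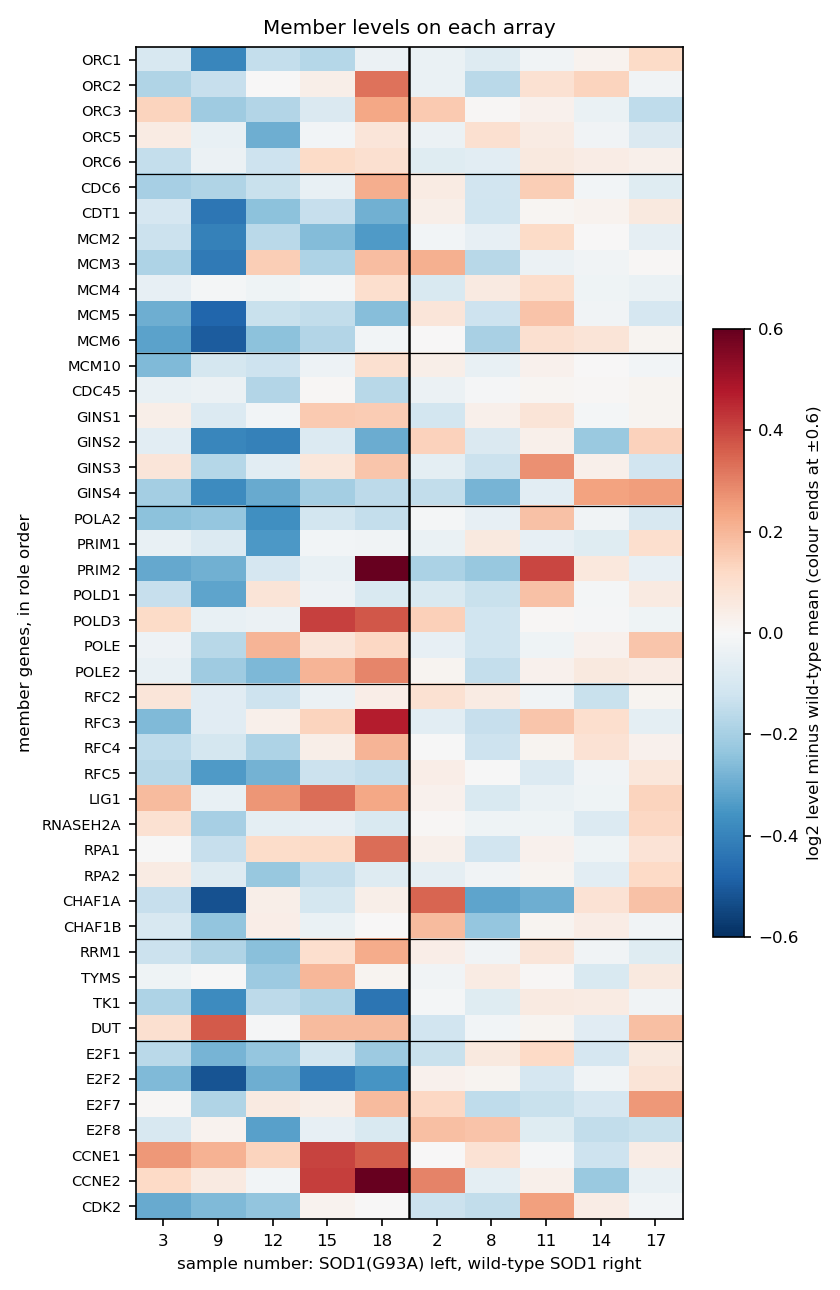
Level of each member (y axis, in role order) on each array (x axis, sample number, SOD1(G93A) left of the line and wild-type SOD1 right) as the log2 difference from the wild-type mean of that gene. The called members E2F2, MCM2 and TK1 are below the wild-type mean in all 5 SOD1(G93A) arrays, as are several uncalled members such as CDT1 and MCM5. CCNE1 is above it in all 5. Sample 9 is low in many members, and PRIM2 and CCNE2 in sample 18 lie past the end of the colour scale at 0.6.

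Other genes of the pathway, from 4 further lists, had calls in 1 direction. Of 73 measured genes 6 fell and 0 rose by limma, or 8.22%, near the background of 9.60% (5.57% lower and 4.03% higher). The unmoderated test called 7 lower and 0 higher, against 735 and 533 of the 14232 named genes. At an unadjusted p under 0.05 there were 19 lower and 2 higher, or 28.8%. The share of named genes was 21.7% (11.6% lower and 10.1% higher). In the replication machinery outside the members 0 of 22 were called by limma or by the other test, and 2 were lower and 0 higher at an unadjusted p under 0.05. POLD2, a subunit of polymerase delta, was the lowest of them (-0.23, adjusted p = 0.0764). Of 26 G1/S regulators 3 fell (11.5%, against 9.60% of named genes, of which 5.57% lower). They were CCND1, cyclin D1, by 0.23 (SE 0.05), the phosphatase CDC25A by 0.27 (SE 0.06) and the transcription factor MYC by 0.27 (SE 0.07). The CCND1 call held in all 10 fits without 1 array (adjusted p up to 0.0361). That of CDC25A was lost in 6 of them, those omitting wild-type samples 2 and 11 and SOD1(G93A) samples 3, 9, 12 and 15 (adjusted p at most 0.0694). That of MYC was lost in 8, all but those omitting SOD1(G93A) samples 3 and 18 (adjusted p at most 0.0860). CDKN1B, the cyclin E-CDK2 inhibitor p27, had levels of 8.10, 8.11, 8.14, 8.42 and 8.54 in SOD1(G93A) arrays, against 8.05, 7.71, 7.91, 8.04 and 8.05 in wild-type arrays. The groups did not overlap, but the adjusted p was 0.124 by limma (log2 fold change 0.31). The other CDK inhibitor genes measured in that list were not called either, and they ran both ways. CDKN2A had the lowest log2 fold change of them (-0.57, adjusted p = 0.0691 by limma) and CDKN1A the highest (0.16). CDKN1C, CDKN2B and CDKN2D had -0.06, -0.02 and -0.00.

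The other 3 calls, with the largest fold changes among the called genes of these lists, were in genes of a long segment of chromosome 2. RRM2, the small subunit of ribonucleotide reductase, had levels of 11.88, 11.98, 11.90, 12.06 and 12.27 in SOD1(G93A) arrays, against 12.45, 12.48, 12.47, 12.42 and 12.43 in wild-type arrays, and fell by 0.43 (SE 0.07, adjusted p = 0.00395 by limma). CAD, the first enzyme of pyrimidine synthesis, fell by 0.48 (SE 0.08) and the mismatch repair gene MSH6 by 0.32 (SE 0.06). All 3 lie between SH3YL1 and ACYP2, a stretch bounded in an earlier reading of these data. The G1/S regulators E2F6 and MYCN also lie there and were not called. Their log2 fold changes were -0.59 and 0.10 (adjusted p = 0.0832 and 0.753 by limma). Of 201 named genes there 101 were called lower and 2 higher (51.2% called), with a median log2 fold change of -0.37. Of 14031 named genes outside it 692 were called lower and 571 higher (9.00% called). No member of the list of 51 lies in it. Outside it 3 of 68 further pathway genes were called lower. The part of the stretch in the RRM2, CAD and MSH6 values was not tested. RRM1, whose protein pairs with that of RRM2, had a log2 fold change of -0.05, as above.

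**Figure D4:**
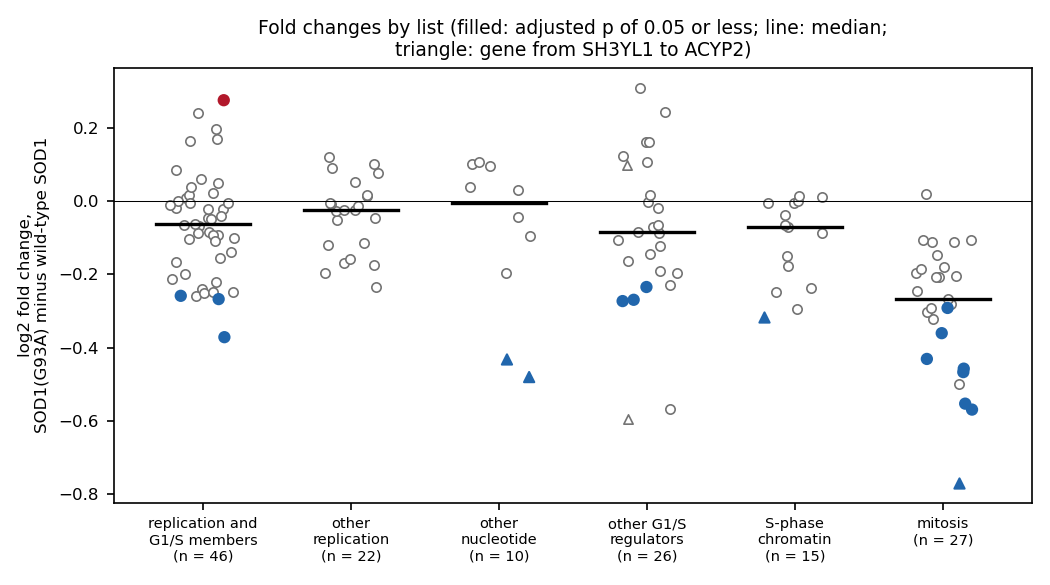
Log2 fold change (y axis, SOD1(G93A) minus wild-type SOD1) of the genes of each list (x axis), 1 point per gene, with the median as a line, called genes filled and genes between SH3YL1 and ACYP2 as triangles. The member median is -0.06 and the mitosis median -0.27.

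Genes of mitosis, the later part of the cycle, had a lower median than the members. Of 27 measured 8 fell and 0 rose by limma (29.6%, against 9.60% of named genes, of which 5.57% lower), with a median log2 fold change of -0.27. At an unadjusted p under 0.05 there were 19 lower (70.4%, against 11.6% of named genes) and 0 higher. Among the called genes the 6 with the largest fall were CENPA, the centromeric histone, by 0.77 (SE 0.06), CDC20, which switches on the ubiquitin ligase of anaphase, by 0.57 (SE 0.15), CDCA8 by 0.55, the proliferation marker MKI67 by 0.47 (SE 0.10), CENPF by 0.46 and CENPE by 0.43. CENPA lies in the chromosome 2 stretch, without whose genes 7 of 26 were called. The CDC20 call was lost in 8 of the 10 fits without 1 array, all but those omitting wild-type sample 2 and SOD1(G93A) sample 12, and that of CENPF in 4, those omitting wild-type samples 2 and 14 and SOD1(G93A) samples 3 and 9 (adjusted p up to 0.102 and 0.0662). That of AURKB, also among the 8, was lost in 9 (adjusted p up to 0.101 by limma). CENPA, CDCA8, MKI67, CENPE and BUB1 kept their calls in all 10. The CDC20 groups overlapped, since SOD1(G93A) samples 12 and 15 (10.02 and 9.98) lay above wild-type sample 2 (9.95). The mean level of the 27 mitosis genes was 8.75, 8.70, 8.73, 8.95 and 8.96 in SOD1(G93A) arrays. It was below the 9.12, 9.02, 9.15, 9.13 and 9.12 of wild-type arrays, without the overlap seen in the member means. The difference between the lists was not tested, and neither was the part of one in the other.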

How the data were processed

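RNA of 10 samples was measured on Affymetrix exon arrays. The authors deposited log2 intensities summarised per gene, made with RMA per the submitters' processing notes and analysed with oneChannelGUI 1.6.5 per the labels. RMA makes array distributions alike, so a shift of all genes would not be visible. The sources used here give no genome build or filter.

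Of 22011 probe sets, 14432 carried 1 gene symbol in the platform annotation, 2408 several and 5171 none. A gene with several took its brightest, and each measured member had just 1. Groups were compared with lmFit and eBayes of limma 3.58.1 (R 4.3.3), 2-sided and unfiltered, and p-values were adjusted by Benjamini-Hochberg across the whole table. The code was tested on simulated data. Lists were described by counts and medians. Named by rule were the called members, the highest and lowest uncalled member of each role, and RRM2. So were up to 6 called genes of each further list. Other members, POLD2, E2F3, E2F4, E2F5, E2F6, MYCN, AURKB, BUB1 and the CDK inhibitor genes were named after their values were seen. Members and lists were chosen with earlier results of these data known. Alternatives were other normalizations, filters on dim probe sets, variance models, array weights, averaged probe sets, the labels' fold threshold and omitted arrays; the chromosome 2 stretch, the use of any listed start and a block of neighbouring sample numbers were added after seeing the data.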

Additional observations from a re-analysis of the deposited data

Results flagged for a closer look

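In 5 of 92 sets of 5 values (5.43%), 1 for each member and group, 1 array stood apart from the other 4, with a gap that took up most of the whole range. Chance flags about 1 in 20 such sets. In SOD1(G93A) arrays MCM4 was 10.11 in sample 18, against 9.96 to 10.00 in the others. PRIM2 was 7.36 in SOD1(G93A) sample 18, against 6.37 to 6.63. PRIM1 was 8.40 in SOD1(G93A) sample 12, against 8.67 to 8.73. In wild-type sample 8 CDT1 was 8.32, where the others were at least 8.46, and POLE2 was 6.75, against 6.91 to 6.95. None of the 4 called members was among them.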

How the results depend on the processing

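Of the refits of single members, 879 kept their side of the threshold, 32 lost a call, 9 gained one, and 0 called members changed sign. Most of the 879 were of members not called in the main fit. Only the 4 called members could lose a call, and all 32 losses were in MCM2, TK1 and CCNE1. In the 10 fits without 1 array these kept their calls in 2, 1 and 3, while E2F2 kept its call in all 10. Among the members the lower calls were 3 and the higher 1. They became 1 and 0 without samples 17 and 18 together, 5 lower among probe sets above the median only, and 0 and 0 with a log2 fold change of at least 1 added. Without 1 array the lower calls ran from 1 to 3 and the higher from 0 to 2. The fold threshold also left 0 of the 6 further pathway calls and 0 of the 8 mitosis calls. Without 1 array these ran from 4 to 8 and from 5 to 8, and the higher pathway calls stayed at 0. The unmoderated test called 5 mitosis genes lower. Without the genes from SH3YL1 to ACYP2, left out after seeing the data, the pathway calls were 3. The fit was the same, and the called genes RRM2, CAD and MSH6 were among those left out. In the 150 bases before the start CHR words were found in 0% of member promoters, a shorter window, and E2F words in 33.3%; with any listed start they were in 3 and 21 of 42. The member median ran from -0.10 to -0.03 without 1 array. Median centring moved the median of all probe sets to -0.01, against 0.00. For the rest, the cause was not tested. The groups share no sample numbers, and no label ties neighbouring ones. A replicate block of neighbours (2 with 3, 8 with 9 and so on), added after seeing the data, left 1 lower and 0 higher member calls (E2F2, adjusted p = 0.0288 by limma) and 3 lower pathway calls. The member fold changes are the same in that fit by construction, and adjusted p was 0.0626 for MCM2, 0.0601 for TK1 and 0.110 for CCNE1. Deviations of neighbours from their group means, over all probe sets, correlated at -0.03 to 0.14, over 0.1 only for samples 8 and 9. These neighbours were also the arrays most often lowest of their groups among the members. Such values cannot show whether neighbours were processed together, and the main fit has no block. The table carries no detection calls.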
